A study of Mus musculus with 6 samples.

Results

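Otx1, Otx2, Emx2, Lhx2, Pax6, En1, En2, Zic1 and Pax3 are transcription factors that mark regions of the developing brain. They were listed by symbol, with earlier results of these data known, and all 9 were found among the 18211 genes of the deposited table. Their RNA was measured in oligodendrocyte precursor cells (OPCs), the dividing glia from which myelinating oligodendrocytes form. Cells were panned with an antibody to PDGFRα from C57BL/6 mice at P7 and sequenced without culture. Below, OPCs stands for these panned cells, whose libraries also held RNA of other cell types. There were 3 libraries from wildtype mice and 3 from NG2-CreERTM:DISC1 exon3 fl/+ (DISC1-Δ3) mice, and both groups received tamoxifen by gavage on 4 consecutive days from P4. In DISC1-Δ3 mice the NG2 promoter, which is active in OPCs and also in pericytes, drives the recombinase, and exon 3 is removed from 1 of the 2 Disc1 alleles. The study describes the wildtype mice as lacking CreERT, so effects of the recombinase and of the deletion cannot be told apart. Neither the labels nor the methods say whether these mice carried the floxed allele, or whether a library is 1 animal or a pool. The p-values therefore measure the spread between these libraries, which may be technical.

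The early neural tube is divided along its length by such factors. Otx1 and Otx2 mark the forebrain and midbrain, and Emx2, Lhx2 and Pax6 pattern the cerebral cortex. En1 and En2 act at the border of midbrain and hindbrain, where Gbx2 opposes Otx2 from the hindbrain side. Zic1 and Pax3 mark the dorsal neural tube, and Zic1 is also used in the cerebellum. Many of them stay on in glia of the region in which the glia arose, and Otx2 is also a factor of the choroid plexus. The study's methods name the cerebral hemispheres as the tissue from which cells were panned.

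Promoter sequences of the members are given to show what lies at their start sites; the values below are per gene and do not separate the start sites. RefSeq promoters of assembly GRCm38.p6, each from 250 bases before to 50 bases after a start site, were at hand for 6 of the 9 members, with 11 start sites in all. Otx1, En2 and Pax3 had no entry. Of the sequences shown, En1 and Zic1 belong to the members with the largest rises described below, and Otx2 and Emx2 carry matches to the motif searched, which stand in capitals. Sequences run 5′ to 3′ on the strand of the gene.
En1, chr1:120602237-120602536, plus strand: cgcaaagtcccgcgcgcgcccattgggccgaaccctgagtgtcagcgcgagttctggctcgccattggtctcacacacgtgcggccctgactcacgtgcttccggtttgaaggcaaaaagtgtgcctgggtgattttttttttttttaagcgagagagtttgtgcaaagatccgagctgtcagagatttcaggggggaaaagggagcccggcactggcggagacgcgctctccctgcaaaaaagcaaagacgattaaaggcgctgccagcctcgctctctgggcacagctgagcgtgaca
Zic1, chr9:91365719-91366018, minus strand: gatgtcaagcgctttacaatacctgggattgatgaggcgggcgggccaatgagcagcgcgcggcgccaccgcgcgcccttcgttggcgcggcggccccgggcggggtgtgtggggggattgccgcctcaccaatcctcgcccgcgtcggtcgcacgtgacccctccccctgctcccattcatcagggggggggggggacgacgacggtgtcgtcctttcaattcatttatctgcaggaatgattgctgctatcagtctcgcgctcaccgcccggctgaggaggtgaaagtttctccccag
Otx2, the start site with the most TAATTA, chr14:48665060-48665359, minus strand: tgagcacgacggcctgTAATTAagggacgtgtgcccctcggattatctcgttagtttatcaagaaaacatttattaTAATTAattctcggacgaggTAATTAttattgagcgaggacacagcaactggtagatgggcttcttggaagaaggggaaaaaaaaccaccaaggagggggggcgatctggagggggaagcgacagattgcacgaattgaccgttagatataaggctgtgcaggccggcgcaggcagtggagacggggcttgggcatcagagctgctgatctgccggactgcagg
Emx2, chr19:59458440-59458739, plus strand: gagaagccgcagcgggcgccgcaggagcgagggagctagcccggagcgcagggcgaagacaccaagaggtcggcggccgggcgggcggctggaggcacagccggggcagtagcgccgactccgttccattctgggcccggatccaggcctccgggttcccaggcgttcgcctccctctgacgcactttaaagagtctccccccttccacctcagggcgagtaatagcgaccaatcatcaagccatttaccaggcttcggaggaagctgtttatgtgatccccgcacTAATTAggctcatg

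Both strands were searched for CTTTGAA and CTTTGAT, cores bound by the TCF/LEF factors of Wnt signaling, and for the homeodomain core TAATTA, which reads the same on both strands. A TCF/LEF core was found in 0 of the 11 member promoters, while 8.65% of all 32851 promoters of this length held one or the other. TAATTA was present 3 times in the Otx2 promoter shown, once in another Otx2 promoter and once in that of Emx2, and 5.29% of all promoters held it. The member promoters had 41.7% to 74.7% GC and 6 to 34 CpG, against medians of 52.7% and 7 over all promoters. En1 had 23 CpG, Zic1 31 and Lhx2 34 and 29 at its start sites. A match or its lack describes these letters in this window alone.

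Libraries held 13716619 to 16417219 reads in wildtype and 14229954 to 16138674 in DISC1-Δ3 mice, so that 1 read stood for 0.0609 to 0.0729 CPM. Disc1 had 3.55 ± 0.238 RPKM in wildtype and 2.72 ± 0.240 in DISC1-Δ3 OPCs (SD, n = 3), values per gene that do not resolve exon 3. DISC1-Δ3 replicate 3 stood apart, since its counts differed from those of its fellow replicates by a chi-square of 5.07 and 4.82 for each degree of freedom, against 1.79 to 2.85 for the other pairs within a group. Genes were compared by edgeR's quasi-likelihood test on rounded read counts with TMM scaling between libraries, for the 13792 genes with at least 0.5 RPKM (reads per kilobase of transcript, scaled to library size) in at least 3 libraries. Of these, 39.9% passed an adjusted p of 0.05, with 2807 higher and 2691 lower in DISC1-Δ3 OPCs. By library totals in place of TMM 69.2% of the genes that passed were higher, against 51.1%.

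The members Lhx2, Zic1, Pax6, Emx2, Otx1 and Otx2 were detected in the libraries of both genotypes, while En1, En2 and Pax3 were close to absent. Which of the panned cells held this RNA was not tested. Lhx2, a LIM homeodomain factor required for cortical identity, had by far the highest level among them, at 34.20 to 36.59 RPKM in wildtype OPCs. Zic1 followed with 7.60 to 9.57 RPKM and Pax6 with 6.73 to 7.29. Emx2 (3.62 to 4.37 RPKM) and Otx1 (3.75 to 3.88 RPKM) overlapped, so their order is not established, and Otx2 lay below them at 2.32 to 2.77. En2 had 0.18 to 0.23 RPKM, Pax3 0.02 to 0.05 and En1 0.00 to 0.05. By mean wildtype RPKM, Lhx2 was above 82.9% of tested genes and Otx2 above 23.4%. The order of the first 6 was the same in DISC1-Δ3 OPCs, where the ranges of Emx2, Otx1 and Otx2 overlapped between neighbours, as did those of En1, En2 and Pax3.

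Lhx2, Zic1, Otx2 and Pax6 rose in DISC1-Δ3 OPCs, while Otx1 and Emx2 did not pass the test, at point estimates that were also above 0. The members had been chosen with earlier results of these data known, which limits what a share among them can show. Of the 6 tested members 4 were higher and 0 lower, 66.7% against 20.4% of all tested genes that were higher. Their median log2 fold change was 0.29, and that of all tested genes was 0.01. All 6 exceeded 0.5 RPKM in each library, so none was tested through 1 genotype alone. The RPKM of all 6 did not overlap between genotypes, which was also true of 52% of all tested genes. A two-sided exact permutation test of RPKM gave p = 0.1 for each of the 6, the smallest p that 3 against 3 libraries allow. RPKM is scaled to library size without TMM, which places DISC1-Δ3 values higher relative to wildtype than TMM does. Whether the groups stay apart with TMM scaling was not tested.

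**Figure D1:**
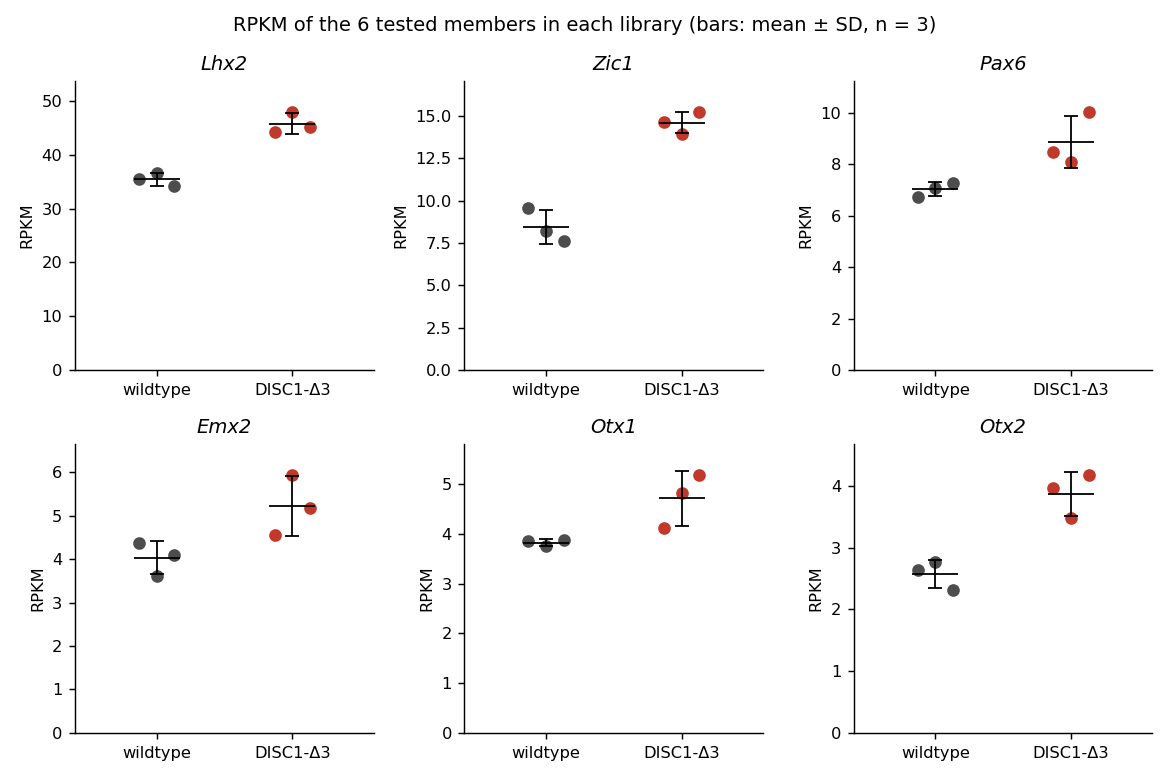
RPKM (vertical axes, from 0) of Lhx2, Zic1, Pax6, Emx2, Otx1 and Otx2 in wildtype (grey) and DISC1-Δ3 (red) libraries; points are libraries, bars the mean ± SD (n = 3). In every panel the 3 red points lie above the 3 grey ones, with the widest gap relative to level for Zic1.

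Zic1 (gene ID 22771, chr9:91358058-91365768), a zinc finger factor of the dorsal neural tube, changed most among the tested members. In wildtype replicates 1 to 3 it had 9.57, 8.19 and 7.60 RPKM, and in the DISC1-Δ3 replicates 14.61, 13.95 and 15.22, from 475, 500 and 456 against 766, 834 and 876 reads. The lowest DISC1-Δ3 library was well above the highest wildtype library. On the log2 scale Zic1 was higher by 0.70 (SE 0.076, Benjamini-Hochberg adjusted p = 8.10e-07 by edgeR), a fitted fold of 1.63 with a 95% confidence interval of 1.46 to 1.82. Of all tested genes 95.2% had a smaller log2 fold change than Zic1, as did 77.6% of the genes called higher. Among the genes called higher that share was 63.6% for Otx2, 38.65% for Lhx2 and 22.4% for Pax6.

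Otx2 (gene ID 18424, chr14:48656781-48667644) encodes the homeodomain factor that sets the hind border of the midbrain. Its RPKM was 2.63, 2.77 and 2.32 in the wildtype libraries, against 3.96, 3.48 and 4.18 with DISC1-Δ3. These rest on 82 to 99 and 125 to 144 reads, and the groups did not overlap. Otx2 was higher by 0.50 on the log2 scale (SE 0.14, edgeR adjusted p = 0.00715), a fold of 1.42 with a 95% interval of 1.16 to 1.73. Its relative Otx1 (gene ID 18423, chr11:21994764-22001651) had 3.85, 3.75 and 3.88 against 4.12, 4.83 and 5.19 RPKM. The difference of Otx1 was 0.23 on that scale (SE 0.11, edgeR adjusted p = 0.105), and its 95% interval ran from 0.00 to 0.47. By library totals Otx1 was at 0.32 and passed (edgeR adjusted p = 0.0311).

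Lhx2 (gene ID 16870, chr2:38339271-38369737) had the best measured change, since 1001 to 1586 reads stood behind each value. It had 35.45, 36.59 and 34.20 RPKM in the wildtype libraries, against 44.20, 47.94 and 45.16 with DISC1-Δ3. The gap between the groups was wider than the range within either. Lhx2 was higher by 0.32 on the log2 scale (SE 0.055, edgeR adjusted p = 0.000165), a fold of 1.24 with a 95% interval of 1.15 to 1.35.

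Pax6 (gene ID 18508, chr2:105668896-105698410), a paired box factor of dorsal cortical progenitors, had 6.73, 7.08 and 7.29 RPKM in the wildtype libraries, against 8.47, 8.10 and 10.03 with DISC1-Δ3. Its counts are partly fractions of reads, for a reason that is not stated. The gene overlaps Elp4, which was at -0.06 (edgeR adjusted p = 0.669), and whether reads were shared between them was not tested. Pax6 was higher by 0.24 on the log2 scale (SE 0.084, edgeR adjusted p = 0.0294). Without DISC1-Δ3 replicate 3, the highest library, it was 0.15 (adjusted p = 0.127), and the call was also lost without each of the wildtype libraries and by DESeq2 (adjusted p = 0.0502 to 0.108).

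Emx2 (gene ID 13797, chr19:59458690-59465357), a homeodomain factor of the caudal and medial cortex and hippocampus, had 4.37, 3.62 and 4.09 RPKM in the wildtype libraries, against 4.56, 5.94 and 5.18 with DISC1-Δ3. The groups nearly met, at 4.37 and 4.56. Its log2 fold change was 0.26 (SE 0.13, edgeR adjusted p = 0.110), with a 95% interval of -0.0047 to 0.53. Emx2 passed by library totals and in both limma fits to log2 RPKM (adjusted p = 0.0291 to 0.0382). Without DISC1-Δ3 replicate 2, the highest library, its log2 fold change was 0.11 (adjusted p = 0.562).

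**Figure D2:**
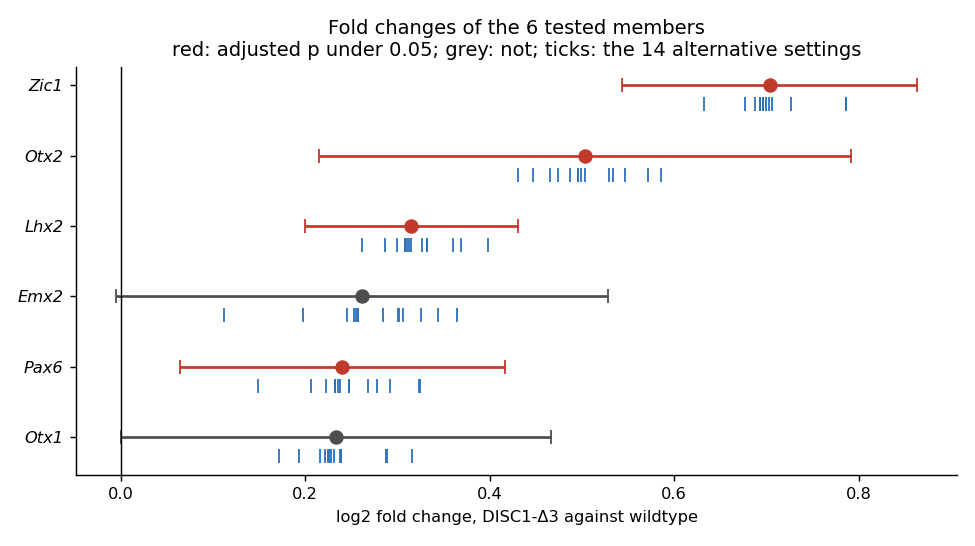
Log2 fold change, DISC1-Δ3 against wildtype, of the 6 tested members with 95% confidence intervals; red marks an adjusted p under 0.05, grey a larger one, and blue ticks are the values under 14 alternative settings. Zic1, at 0.70, lies to the right of the others, and the intervals of Otx1 and Emx2 reach 0.

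Ratios between members within a library do not depend on scaling between libraries. The ratio of Zic1 to Lhx2 RPKM was 0.222 to 0.270 in wildtype and 0.291 to 0.337 in DISC1-Δ3 libraries, without overlap. For Otx2, Pax6, Otx1 and Emx2 the ratio to Lhx2 overlapped between genotypes; that of Otx2 was 0.0678 to 0.0757 against 0.0726 to 0.0926. Among the other tested genes, Slain1 and Gtf3c4 had the profiles nearest to Zic1, with Euclidean distances of 0.0916 and 0.0993 between centred log2(RPKM + 1) over 6 libraries. Celsr3 and Ccl2 were nearest to Otx2 (0.0611 and 0.0813), and Rtn1 and Crip2 to Lhx2 (0.0381 and 0.0449). These distances include the difference between genotypes, and shared regulation was not tested.

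En1, En2 and Pax3 were below 0.5 RPKM in every library and were not tested with the others. En1 (gene ID 13798, chr1:120602487-120607991), an engrailed homeodomain factor that maintains midbrain and rostral hindbrain, had 0, 2 and 0 reads in the wildtype libraries, against 13, 6 and 19 with DISC1-Δ3. In RPKM this was 0.00, 0.05 and 0.00 against 0.38, 0.15 and 0.49. Every DISC1-Δ3 library thus held more En1 reads than all wildtype libraries together. From totals of 38 against 2 reads relative to library totals, the fold was 19.0, and its exact 95% interval, for counting error only, ran from 4.91 to 162.6. In the edgeR fit without the RPKM filter, in which 31.7% of 18172 genes were called, En1 was higher with an adjusted p of 0.000205. Even so, its DISC1-Δ3 level of 0.340 ± 0.174 RPKM (SD, n = 3) was far below that of the forebrain members.

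Its paralog En2 (gene ID 13799, chr5:28165696-28172190) overlapped between genotypes. It had 10, 10 and 13 reads in the wildtype libraries, against 3, 11 and 12 with DISC1-Δ3, the lowest value being in DISC1-Δ3 replicate 1. The fold of En2 from reads was 0.788, with a 95% exact interval of 0.453 to 1.36, and its adjusted p in the edgeR fit without the filter was 0.547. Pax3 (gene ID 18505, chr1:78101267-78197136), a paired box factor of the dorsal neural tube and neural crest, had 1 or 2 reads in wildtype and 4, 2 and 2 in DISC1-Δ3 libraries. With 5 against 8 reads in total, the exact 95% interval of the fold of Pax3 ran from 0.462 to 6.22, and no difference was detectable at this depth.

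**Figure D3:**
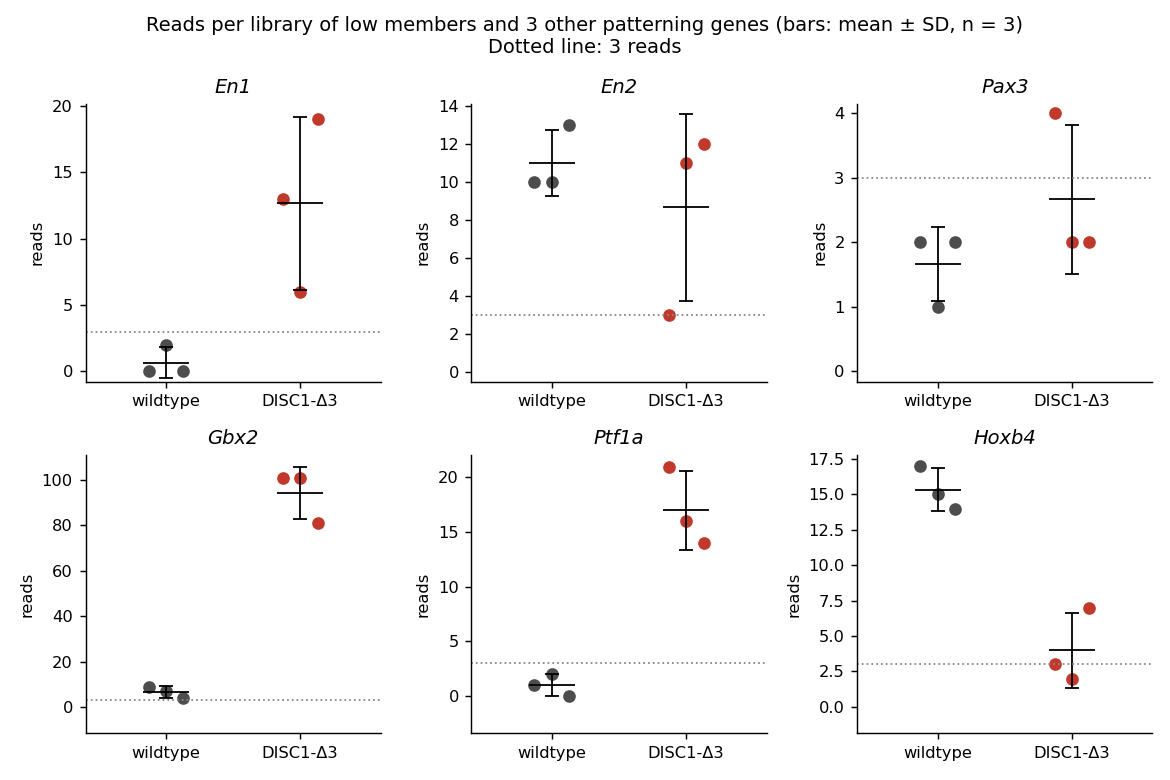
Reads per library (vertical axes) of En1, En2 and Pax3 and of 3 patterning genes outside the member list, Gbx2, Ptf1a and Hoxb4, in wildtype (grey) and DISC1-Δ3 (red) libraries; bars are mean ± SD (n = 3) and the dotted line marks 3 reads. En1, Gbx2 and Ptf1a have more reads in every DISC1-Δ3 library, Hoxb4 fewer, and En2 and Pax3 overlap.

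Other genes of regional patterning were taken from 6 lists, with 125 genes in the table. Of 67 tested genes, 23 rose and 7 fell with DISC1-Δ3; 44.8% thus passed, against the 39.9% of all tested genes. Their median log2 fold change was 0.21. With DESeq2 21 were higher and 6 lower, and by library totals 31 and 5. The 3 with the largest rises, Ptf1a, Gbx2 and Nr4a2, were in the midbrain and hindbrain lists. Of the 23, Ptf1a, Gbx2 and Irx5 were tested only through DISC1-Δ3 libraries, so the filter adds to the count of rises. Tle6 was also tested only through them and did not pass.

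Of the genes of the midbrain and the isthmic organiser, the signaling centre at the border to the hindbrain, 3 of 6 tested genes were higher and 0 lower, with a median of 0.53. The share higher was 50%, against 20.4% of all tested genes. Gbx2, the factor on the hindbrain side of the Otx2 border, had 9, 7 and 4 reads in the wildtype libraries, against 101, 101 and 81 with DISC1-Δ3. Its RPKM rose from 0.220 ± 0.105 to 3.09 ± 0.518 (SD, n = 3), a difference of 3.72 on the log2 scale (SE 0.29, edgeR adjusted p = 1.36e-08). Gbx2 passed the filter only through DISC1-Δ3 libraries, and without it 2 of 5 were higher, with a median of 0.43. Nr4a2, a factor of midbrain dopamine neurons and an immediate-early gene, rose by 1.18, and Il17rd, which restrains FGF signaling, by 0.43. Gata2 was at 0.28 (edgeR adjusted p = 0.111). Pax5, which cooperates with En genes at the isthmus, had 21 reads in wildtype and 23 in DISC1-Δ3 libraries together, and Pax2 and Pax8 had no more than 3 reads in any library.

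Of the genes of the hindbrain and dorsal neural tube 7 of 13 were higher and 1 lower, with a median of 0.70. Thus 53.85% were higher, against 20.4% of all tested genes. Ptf1a and Irx5, both counted as higher, passed the filter only through DISC1-Δ3 libraries, and without them 5 of 11 were higher and 1 lower, with a median of 0.41. Zic2, a paralog of Zic1, had 6.68, 6.12 and 6.39 RPKM in the wildtype libraries, against 14.57, 14.19 and 13.71 with DISC1-Δ3. Zic2 was thus higher by 1.07 on the log2 scale (SE 0.077, edgeR adjusted p = 4.58e-09). Zic5, the neighbour of Zic2, was at 0.70 (adjusted p = 0.0325), a call lost by DESeq2, with the replicate block and without wildtype replicate 2 or 3 or DISC1-Δ3 replicate 1 or 3 (adjusted p = 0.0516 to 0.121). Zic4, at 0.17 (adjusted p = 0.483), did not pass the edgeR test. Zic4 overlaps Zic1 in the annotation, and reads of overlapping genes may not be told apart in libraries whose strand is not stated. Irx1, an Iroquois homeodomain factor, rose by 0.98. Ptf1a, which specifies inhibitory neurons of cerebellum and hindbrain, had 1, 2 and 0 reads in wildtype and 21, 16 and 14 in DISC1-Δ3 libraries, 17.0-fold from reads with a 95% exact interval of 5.50 to 85.2. Egr2, a hindbrain segment factor, was at 0.30 (edgeR adjusted p = 0.0524), and Pax7, the paralog of Pax3, had 0 reads in wildtype and 6 in DISC1-Δ3 libraries together.

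The telencephalic list moved in both directions, with 7 of 22 tested genes higher and 3 lower and a median of 0.18. This was 31.8% higher, against 20.4% of all tested genes. Dmrta2, a factor of the caudal and medial cortex, rose by 0.99, and Nr2f2, a factor of caudal cortex, by 0.63. Gli3, which restrains ventral fates, fell by 0.55. Dlx1, an interneuron factor, was at -0.14 (adjusted p = 0.0244), a call lost by library totals, in both limma fits and without wildtype replicate 1 or 2 or DISC1-Δ3 replicate 2 (adjusted p = 0.0578 to 0.342). Its neighbour Dlx2 was at 0.03 (adjusted p = 0.660). Emx1, the paralog of Emx2, was at -0.40 (adjusted p = 0.211 from edgeR). In the diencephalic list 2 genes were tested, Vax1 at 0.16 (adjusted p = 0.156) and Foxd1 at 0.54 (adjusted p = 0.0716). Neither passed by edgeR or DESeq2, Foxd1 had an unadjusted edgeR p of 0.0309, and both passed by library totals and in the limma fits. Below the filter were Lhx9, a relative of Lhx2, with 35 and 33 reads in wildtype and DISC1-Δ3 libraries together, and the Otx relative Crx, with 1 and 6.

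Among 24 cofactors of homeodomain and LIM factors 6 were higher and 3 lower, with a median of 0.10. The share that passed, 37.5%, was near the 39.9% of all tested genes. Tle1, a Groucho corepressor, rose by 1.13 and Lmo1, a LIM-only protein, by 0.82. Pknox2 rose by 0.44. Ldb1, the adaptor through which Lhx2 forms complexes, fell by 0.29, and Ssbp4, a partner of Ldb1, fell by 0.22, a call lost by library totals, in both limma fits and without wildtype replicate 1 (adjusted p = 0.0558 to 0.0878). Tle5 was at 0.00 (adjusted p = 0.972 from edgeR). Of the 21 Hox genes in the table, which mark the hindbrain and spinal cord, 0 were tested, and 18 had at most 3 reads in every library. Hoxb4, named here after its values were seen, had 17, 15 and 14 reads in wildtype and 3, 2 and 7 in DISC1-Δ3 libraries, and its adjusted p in the edgeR fit without the filter was 0.00257.

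**Figure D4:**
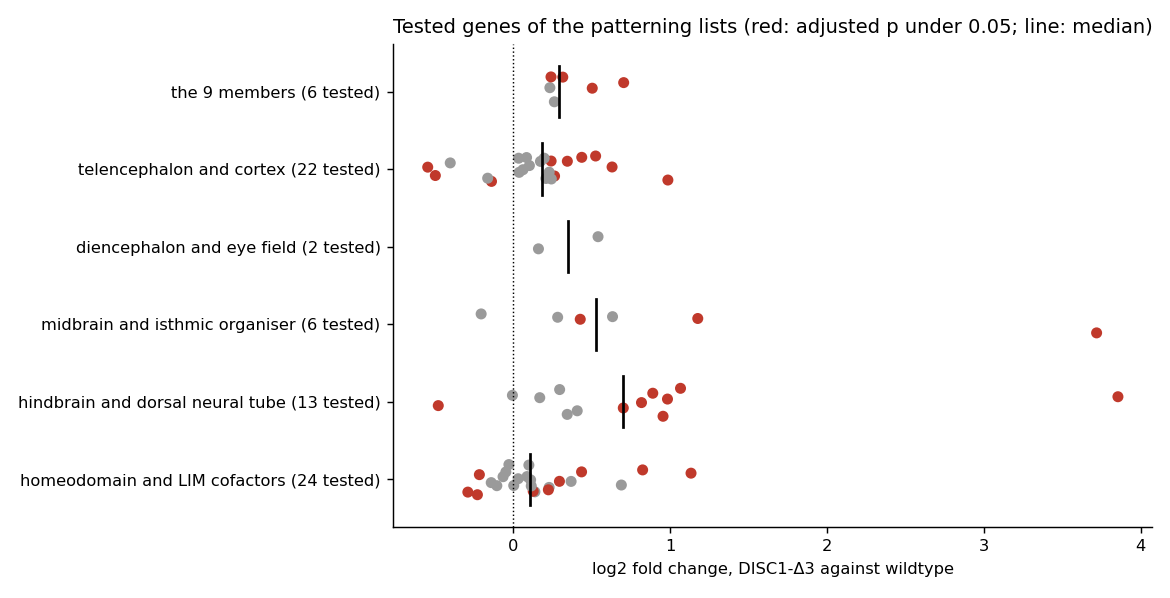
Log2 fold change, DISC1-Δ3 against wildtype (horizontal axis), of the tested members and of the tested genes of 5 other lists; red points passed an adjusted p of 0.05 and black lines are medians. Medians lie at 0.29 for the members, 0.18 for the telencephalon, 0.53 for the midbrain and 0.70 for the hindbrain and dorsal neural tube, and Gbx2 and Ptf1a are the points beyond 3.

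The libraries also held RNA of other cell types that express these factors. Summed over 8 genes each, OPC markers had 524 to 544 RPKM in wildtype and 668 to 692 in DISC1-Δ3 libraries, and microglia markers 11230 to 11460 and 7899 to 8197. The labelled cell type was therefore present, with Pdgfra at 17.5 ± 0.5 RPKM in wildtype, beside microglia markers of higher summed RPKM. Sums over different marker genes do not measure the share of RNA from each cell type, which was not tested. In such bulk samples fewer cells of a type and less RNA per cell cannot be told apart. All 8 microglia markers were lower, and 6 of 8 OPC markers were higher and 1 lower. Beside these and the marker counts below, 39.9% of all tested genes passed in either direction and 20.4% were higher. The 9 members summed to 59.7 to 62.9 RPKM in wildtype and 80.5 to 85.7 in DISC1-Δ3 libraries. The part of these shifts in the members' values was not tested.

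Beside Otx2, choroid plexus markers summed to 778 to 898 RPKM in wildtype and 1014 to 1143 in DISC1-Δ3 libraries, with 3 of 7 tested markers higher and 0 lower. Most of this was Ttr, at 764 to 884 and 994 to 1122 RPKM. Clic6 and Aqp1 were also higher. The other tested choroid plexus markers did not pass the edgeR test and went both ways. On the log2 scale Folr1 was at 0.0038, Kcne2 at 0.19, Kl at -0.31 and Slc4a5 at -0.29. Beside Zic1, En1 and Gbx2, cerebellar granule cell markers summed to 20.7 to 22.4 and 29.9 to 34.1 RPKM, and most of this rise was in Calb2. Of 5 tested genes 2 were higher, Cbln1 (0.877 and 2.78 RPKM) and Calb2 (9.07 and 17.5 RPKM in wildtype and DISC1-Δ3 OPCs). The others did not pass the edgeR test and went both ways. On the log2 scale Neurod2 was at 0.43 (edgeR adjusted p = 0.0987), Neurod1 at -0.20 (0.590) and Etv1 at -0.19 (0.0978). Gabra6 was not in the table, and Cbln3 and Barhl1 were below the filter. Meningeal fibroblast markers, of cells that also use Zic1, were at 28.4 to 30.0 and 31.7 to 34.4 RPKM, and 0 of 8 passed the edgeR test, with 0 at an unadjusted p under 0.05 and 0 by DESeq2, while 1 was higher by library totals and in each limma fit. Beside Pax6, Emx2 and Lhx2, which astrocytes share, 1 of 8 astrocyte markers was higher and 6 were lower, at 1965 to 2005 and 1888 to 1906 RPKM. Neuron markers were higher for 6 of 8 genes and lower for 0, at 350 to 353 and 417 to 438 RPKM, endothelial and mural markers for 7 and 0 of 8, at 154 to 165 and 220 to 223 RPKM, and mature oligodendrocyte markers for 0 and lower for 5 of 8, at 2445 to 2477 and 2258 to 2290 RPKM. No marker in the table was at 0 in all libraries, and their part in the members' values was not tested.

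**Figure D5:**
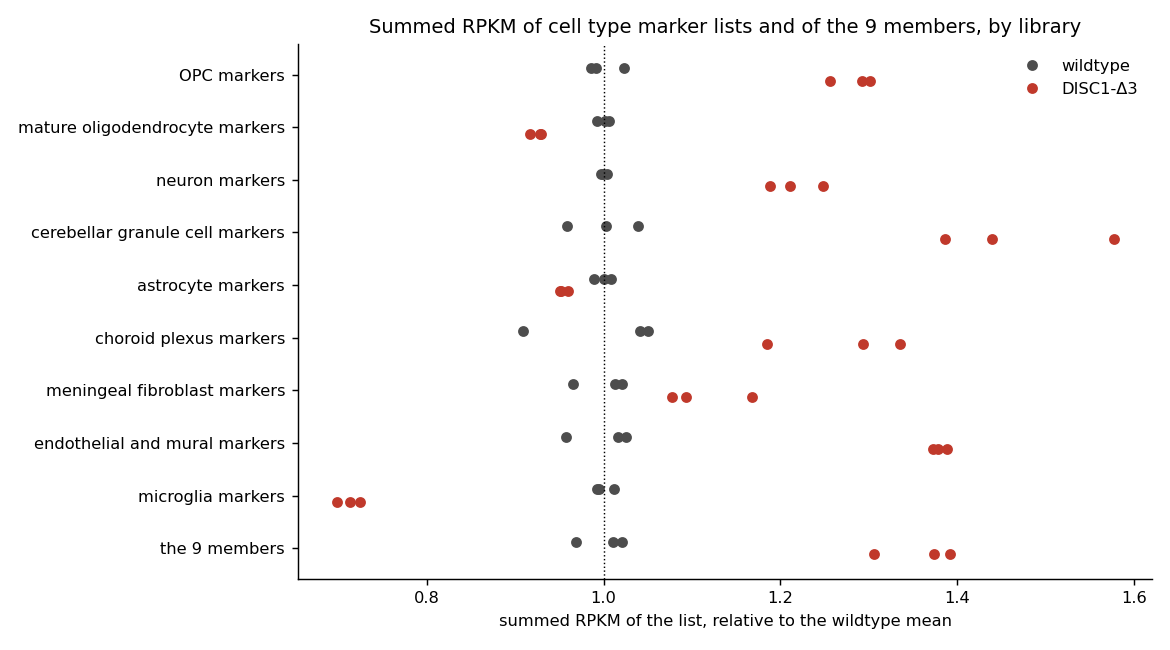
Summed RPKM of each marker list and of the 9 members in each library, divided by the mean of the wildtype libraries (horizontal axis; grey wildtype, red DISC1-Δ3). The members lie at 1.31 to 1.39 in DISC1-Δ3 libraries, the choroid plexus list at 1.19 to 1.34 and the microglia list at 0.698 to 0.724.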

How the data were processed

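OPC RNA in 3 wildtype and 3 DISC1-Δ3 libraries was sequenced as single-end 50-base reads. The submitters' processing notes name Bowtie2 2.2.5 and build mm10; the counting tool and annotation are not given in the sources used here. The authors deposited expected counts per gene, some of them fractions of reads (90.2% of values above 0 are whole). They also deposited RPKM to 2 decimals, scaled by the authors for transcript and library size. Another 4 columns of group means were not used.

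Counts were rounded and fitted with edgeR 4.0.16 (R 4.3.3; TMM, quasi-likelihood, genotype as the only term) for genes with at least 0.5 RPKM in at least 3 of 6 libraries. Standard errors are the log2 fold change divided by the square root of F. P-values are two-sided with Benjamini-Hochberg adjustment over all tested genes. The members and lists were chosen with earlier results of these data known. All members were named and, of each other list, paralogs of members with Gbx2, up to 3 genes past the threshold with the largest changes and at most 3 with the highest mean RPKM; some of these are not reported here. For the 3 members that changed most, the 2 tested genes at the smallest distance were named. Hoxb4 and the named markers were picked after their values were seen. Alternatives were no filter, filterByExpr, median-of-ratios scaling, library totals, DESeq2 1.42.0, limma 3.58.1 on log2(RPKM + 1) and log2(RPKM + 0.1), the replicate number as a block, and each library left out. DESeq2 and leaving out a library without the filter, for En1, En2 and Pax3, were added after seeing the data. The fits were tested on simulated data with log2 changes of 0.5 and 1, which are larger than those of Lhx2, Pax6, Emx2 and Otx1. At 0.5 edgeR recovered 74 of 100 changed genes, DESeq2 64 and limma 62. False calls over both sizes were 9, 6 and 20. Recovery of smaller changes was not tested. No molecular identifiers are stated, so intervals from reads cover counting error only. Coordinates and promoters are from RefSeq, GRCm38.p6, the assembly of mm10.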

Additional observations from a re-analysis of the deposited data

How the results depend on the processing

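Zic1, Otx2 and Lhx2 kept their direction and their side of the threshold under all 14 alternatives, with log2 fold changes of 0.63 to 0.79, 0.43 to 0.59 and 0.26 to 0.40. The number of members past the threshold ran from 3 to 6, with 0 lower under each alternative: it was 6 by library totals, 5 without the filter, where En1 joined, and in both limma fits, and 3 by DESeq2 and without any 1 of the wildtype libraries or DISC1-Δ3 replicate 3. Pax6 had adjusted p of 0.0066 to 0.127 over the alternatives, Otx1 0.0311 to 0.266 and Emx2 0.0291 to 0.562. En1, without the filter, passed by DESeq2 (adjusted p = 0.0047) and with each library left out (up to an adjusted p of 0.0145). Ptf1a and Gbx2 kept their calls, with log2 fold changes of 0.79 to 4.67 and 1.74 to 4.07, lowest in the limma fit with a pseudocount of 1. Tle5 changed sign without the filter (-0.0018), by filterByExpr (-0.013), by median-of-ratios scaling (-0.0039), by DESeq2 (-0.0039) and with some libraries left out (from -0.043 to 0.047 over the 6), and Dlx2 without DISC1-Δ3 replicate 2 (-0.027, up to 0.052 without another library); neither passed the threshold there. Replicate numbers did not pair the libraries (correlations of deviations 0.044, 0.026 and -0.029 for numbers 1 to 3). The fit with the replicate number as a block called 5429 genes and the same 4 members, while Zic5 lost its call (adjusted p = 0.0539). Depth limits Pax3, En2 and En1, with at most 19 reads in a library.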
